A study of Mus musculus with 12 samples.

Results

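FK506 was given to mouse CD4+ T cells together with *Lactobacillus acidophilus*, and the transcripts of 3 libraries with both agents were compared with those of 3 libraries with the bacterium and no FK506. These were 6 of the 12 libraries of the series, and the members of the comparison were the genes counted in 3 or more libraries of the 12, which were 23585 of the 45777 genes in the table. The labels describe every library as CD4+ T cells from the spleen of wild type Balb/c mice aged 7 weeks, stimulated with anti-CD3 at 0.5 ug/ml for 3 days. The 4 groups of 3 libraries each received no further agent, *L. acidophilus*, FK506 or both, so the cells of both groups compared here carried anti-CD3 and the bacterium alike. The study's methods name B6 mice of an older age for this experiment, describe a heat-killed preparation of the bacterium, and name no doses for these cultures. No source used here says that the 3 libraries of a group came from separate mice or cultures, so the p-values measure the spread between these libraries, which may be technical.

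FK506, also called tacrolimus, binds the immunophilin FKBP12 in the cell, and this complex blocks calcineurin, the calcium-dependent phosphatase downstream of the T-cell receptor. Calcineurin removes phosphate from the NFAT transcription factors, which then enter the nucleus and, often together with AP-1, switch on cytokine genes such as those of IL-2, IL-4 and IL-13. Anti-CD3 starts this cascade by crosslinking the T-cell receptor complex, and activated T cells then grow, divide and take up more glucose. Regulatory T (Treg) cells, marked by the transcription factor FOXP3, restrain other T cells and use IL-2 that they make little of themselves.

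With both agents, 1567 genes were lower and 2343 were higher than with *L. acidophilus* and no FK506. On library totals with no TMM scaling these numbers were 1239 and 2725, and with limma on log2(FPKM + 1) 533 and 1085. A gene was called when its edgeR adjusted p was below 0.05 and its level differed by at least 2-fold. The calls made up 16.6% of the genes tested, with 6.64% called lower and 9.93% called higher, and 33.6% of genes passed the adjusted p without a fold cut-off. The median change was 3.00-fold among the genes called lower and 4.91-fold among those called higher, and the latter sat lower in abundance, with a median of 0.949 FPKM over the 6 libraries against 2.14 FPKM. FPKM is a level scaled to transcript length and to the fragments of the library, and each log2 value below is a fitted difference between the groups. In bulk RNA, fewer cells of a type and less RNA per cell cannot be told apart.

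The libraries differed in ways that the groups do not explain. Total counts ran from 45416397 to 64334919 over the 6 libraries compared, and replicate 1 was the deepest of each group. Replicate 1 of *L. acidophilus* stood apart from the other two, at -24.1 on the first principal component against -66.2 and -68.5, while the 3 libraries with both agents lay between 107 and 110. By a chi-square test of counts per degree of freedom, replicate 1 of either group was also farther from replicates 2 and 3 (59.5 and 60.2 with *L. acidophilus*, 78.7 and 86.8 with both agents) than these were from each other (9.57 and 4.61), a distance still above the 1 of sampling noise. Without replicate 1 of *L. acidophilus* 3951 genes were called, without replicate 1 of the combination 3638, and with replicates 2 and 3 of every group alone 4020. This component held 57% of the variance, and the 2 groups did not overlap on it.

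The largest losses included those of cytokine transcripts. Of 22 effector cytokine genes, 13 fell, 3 rose and 6 were not called, with a median log2 difference of -2.03 against 0.00 over all genes tested, and the median stayed at -2.03 with genes at 0 set to their bound. The sequences just upstream of 5 of the genes at issue are shown here because they are the kind of DNA that NFAT reads. They are the 250 bases before the RefSeq transcription start (GRCm38.p6), written 5′ to 3′ on the strand of the gene, with capitals marking each match to GGAAA, the core of an NFAT site, or to its reverse complement TTTCC. *Il9* was added to the other four after its values were seen, and of the 2 starts that the table holds for *Foxp3* the first was taken. The windows are chr3:37125955-37126204, minus strand, for *Il2*; chr11:53634703-53634952, minus strand, for *Il13*; chr3:37232637-37232886, minus strand, for *Il21*; chr13:56482258-56482507, minus strand, for *Il9*; and chrX:7579426-7579675, plus strand, for *Foxp3*.
Il2: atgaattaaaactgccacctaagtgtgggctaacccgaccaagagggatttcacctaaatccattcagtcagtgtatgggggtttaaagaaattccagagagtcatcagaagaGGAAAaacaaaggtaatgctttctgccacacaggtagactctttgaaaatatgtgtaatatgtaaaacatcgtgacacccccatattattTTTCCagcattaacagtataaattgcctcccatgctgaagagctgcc
Il13: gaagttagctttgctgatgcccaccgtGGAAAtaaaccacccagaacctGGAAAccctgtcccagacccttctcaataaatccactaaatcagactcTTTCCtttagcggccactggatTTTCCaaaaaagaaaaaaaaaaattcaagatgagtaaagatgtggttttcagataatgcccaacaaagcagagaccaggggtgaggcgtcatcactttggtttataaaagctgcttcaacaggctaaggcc
Il21: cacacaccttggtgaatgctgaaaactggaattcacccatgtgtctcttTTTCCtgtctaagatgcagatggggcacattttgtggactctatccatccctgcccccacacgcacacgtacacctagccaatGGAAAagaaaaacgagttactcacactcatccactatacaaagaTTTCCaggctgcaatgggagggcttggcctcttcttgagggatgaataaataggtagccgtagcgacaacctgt
Il9: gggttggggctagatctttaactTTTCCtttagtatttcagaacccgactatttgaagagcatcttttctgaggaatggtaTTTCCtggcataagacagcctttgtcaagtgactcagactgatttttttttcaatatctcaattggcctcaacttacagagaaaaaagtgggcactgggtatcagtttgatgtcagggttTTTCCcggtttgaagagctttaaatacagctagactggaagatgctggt
Foxp3: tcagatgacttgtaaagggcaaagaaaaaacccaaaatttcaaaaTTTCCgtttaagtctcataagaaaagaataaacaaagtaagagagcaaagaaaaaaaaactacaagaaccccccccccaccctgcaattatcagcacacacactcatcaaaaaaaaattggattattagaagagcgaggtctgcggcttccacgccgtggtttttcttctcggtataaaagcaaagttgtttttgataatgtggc

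The window of *Il13* held 4 matches, those of *Il21* and *Il9* held 3 each, that of *Il2* held 2 and that of *Foxp3* held 1. This short core is common. Of the 15025 tested genes with a promoter in the table, 54.3% held at least 1 match in the same window, as did 54.5% of the 1070 genes called lower and 54.8% of the 1631 called higher. Windows with 3 or more matches made up 6.24% of all, 5.98% of those of genes called lower and 7.48% of those of genes called higher. The AP-1 core TGANTCA, searched on both strands, was in 5.12% of all windows, in 5.14% of those of genes called lower and in 6.5% of those of genes called higher. Among the 5 windows printed it occurred in that of *Il9* alone.

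*Il24* and *Il9* had no counts in any of the 3 libraries with both agents. *Il24*, which encodes a cytokine of the IL-10 family (gene at chr1:130882074-130887411), stood at 126, 45.7 and 97.1 FPKM with *L. acidophilus*, or 10268, 3017 and 6216 counts. *Il9*, which encodes the defining cytokine of Th9 cells (chr13:56479277-56482257), stood at 66.1, 23.3 and 25.8 FPKM, or 2634, 753 and 811 counts. Set against a floor of 3 counts in each library, *Il24* was at least 2131-fold lower and *Il9* at least 447-fold lower. The edgeR adjusted p was 3.9e-05 for *Il24* and 5.7e-05 for *Il9*. These 2 were the only genes of the table at 0 in every library of one group and at 5 FPKM or more in all 9 others. With FK506 and no bacterium, *Il24* still read 70.2, 25.8 and 96.5 FPKM and *Il9* 27.5, 31.6 and 77.2 FPKM.

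Cytokine genes of the Th2 cluster on chromosome 11 fell together. *Il13*, which encodes a Th2 cytokine that acts on epithelium and macrophages (chr11:53631323-53634702), went from 128, 41.2 and 55.4 FPKM to 2.14, 2.34 and 2.92 FPKM. It was 33.2-fold lower (log2 difference -5.05 ± 0.53 SE, edgeR adjusted p = 6.4e-05, n = 3 per group), or -4.42 on the log2 scale without replicate 1 of *L. acidophilus*. *Il4*, which encodes the cytokine that drives Th2 differentiation (chr11:53612460-53618665), fell from 91.0, 17.7 and 21.9 FPKM to 1.85, 1.27 and 2.23 FPKM, and it was 26.1-fold lower (log2 -4.70 ± 0.70 SE, edgeR adjusted p = 0.00044). The high *Il4* value was that of the library that stood apart, and without it the log2 difference was -3.57 (edgeR adjusted p = 0.00039). *Il5*, which encodes the eosinophil growth factor (chr11:53720794-53725103), went from 11.1, 2.04 and 2.53 FPKM to 0.667, 0.187 and 0.281 FPKM, a log2 difference of -3.85 (edgeR adjusted p = 0.0013), which was -2.66 without replicate 1 of *L. acidophilus* and -4.60 without replicate 1 of the combination. *Rad50*, a DNA repair gene that lies between *Il13* and *Il5* and was looked up after the values of its neighbours were seen, had a log2 difference of -0.68 ± 0.20 SE (edgeR adjusted p = 0.019), which missed the threshold in 3 of the 6 fits that each left out 1 library, at up to 0.0632. *Kif3a*, a kinesin motor gene on the other side of *Il4* (chr11:53565701-53604248) that was looked up in the same way, also fell, from 8.07, 5.09 and 6.23 FPKM to 3.34, 2.82 and 2.73 FPKM (log2 -1.24 ± 0.28 SE, edgeR adjusted p = 0.0056). In each of *Il13*, *Il4* and *Il5* every library with both agents lay below every library with the bacterium and no FK506.

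The T-cell growth factor *Il2* read 13.3, 38.7 and 41.4 FPKM with *L. acidophilus* and 3.16, 4.82 and 3.64 FPKM with both agents, 8.77-fold lower (log2 -3.13 ± 0.50 SE, edgeR adjusted p = 0.00066). *Il21*, whose product supports follicular helper T cells and B cells, fell from 58.0, 21.6 and 36.5 FPKM to 0.942, 1.11 and 1.04 FPKM, 40.5-fold (log2 -5.34 ± 0.47 SE, edgeR adjusted p = 3.7e-05). *Il3*, which encodes a growth factor of blood progenitors, fell 26.4-fold and *Lif*, an IL-6 family cytokine, 7.85-fold. *Csf1*, the macrophage growth factor, was 4.17-fold lower and *Csf2*, which encodes GM-CSF, 3.99-fold lower, the latter with replicate 1 of the combination at 8.91 FPKM against 1.47 and 1.40 in the other two. Without that library the *Csf2* log2 difference was -3.50, and without any 1 of the other 5 it was not called, at an edgeR adjusted p of up to 0.11. Fewer moved the other way. *Il17a* and *Il17f*, the Th17 cytokines, rose from at most 1.12 and 1.04 FPKM to between 2.28 and 6.6 FPKM and between 4.4 and 12.2 FPKM, with edgeR adjusted p of 0.041 and 0.019. *Ebi3*, a subunit of IL-27 and IL-35, was 2.19-fold higher. Every library with both agents lay above every library without FK506 for *Il17a*, *Il17f* and *Ebi3*, yet these calls did not hold in each fit with 1 library fewer, with log2 differences of 2.06 to 4.35 for *Il17a*, 2.53 to 3.73 for *Il17f* and 0.94 to 1.54 for *Ebi3*. Without replicate 1 of the combination, or without replicate 2 or 3 of *L. acidophilus*, 0 cytokines of the list were called higher, while 12 or 13 were still called lower.

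Other cytokines were not called. *Ifng*, the Th1 cytokine, read 26, 5.91 and 6.42 FPKM with the bacterium and 3.34, 11.1 and 13.0 FPKM with both agents, so that the groups overlapped (log2 -0.62 ± 0.58 SE, edgeR adjusted p = 0.44). Without replicate 1 of *L. acidophilus* its log2 difference was 0.43 (edgeR adjusted p = 0.53). *Il10*, an inhibitory cytokine, read 134, 20.3 and 37.5 FPKM against 22.4, 35.3 and 38.0 FPKM (log2 -1.13 ± 0.68 SE, edgeR adjusted p = 0.23), again with overlap, and without replicate 1 of *L. acidophilus* the log2 difference was 0.01. *Tnf* passed the adjusted p but not the fold, from 15.1, 11.3 and 14.7 FPKM to 24.3, 28.5 and 29.5 FPKM (edgeR adjusted p = 0.0011).

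**Figure D1:**
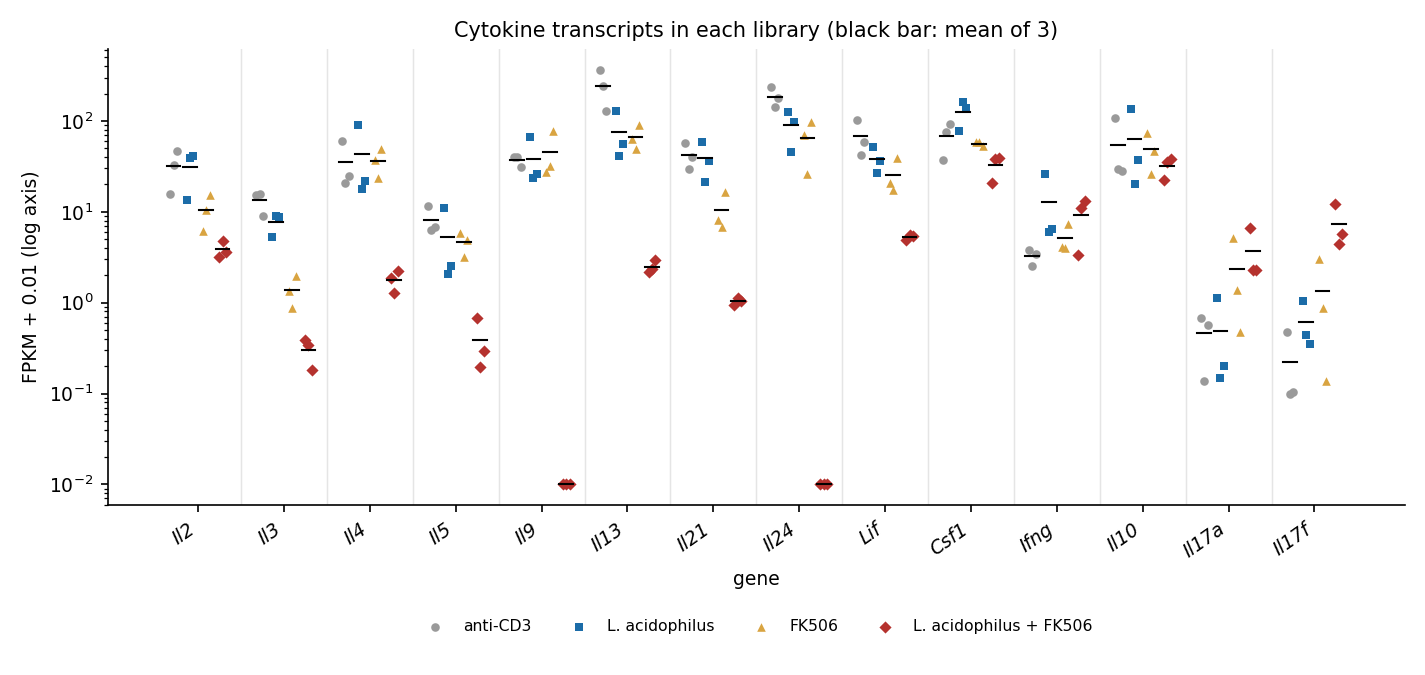
FPKM + 0.01 on a log axis of 14 cytokine genes in each of the 12 libraries, by group, with a bar at the mean of 3. *Il9* and *Il24* sit at the bottom of the axis, at 0 FPKM, in the 3 libraries with both agents, while *Ifng* and *Il10* overlap between the groups with *L. acidophilus*.

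Among the genes of the drug's own pathway 1 was called. Of 20 genes for calcineurin, NFAT, their regulators and the FK506-binding proteins, 0 rose and 1 fell, with a median log2 difference of 0.00, or of 0.13 with no TMM scaling. The share called was 5%, against 16.6% of all genes tested in either direction and 6.64% in the lower direction. Without a fold cut-off 4 passed the adjusted p in the higher and 4 in the lower direction, against 33.6% of all genes tested in either, and in 13 of the 20 the groups did not overlap, against 50.2% of all. *Fkbp4*, a co-chaperone of the HSP90 complex, was the gene that fell (log2 -1.08, edgeR adjusted p = 0.011), though it was short of 2-fold on library totals with no TMM scaling and in 3 of the 6 fits that each left out 1 library. *Fkbp1a*, which encodes FKBP12, read 160, 156 and 164 FPKM and then 122, 122 and 128 FPKM (log2 -0.48, edgeR adjusted p = 0.017), which missed the threshold in 2 of those 6 fits, at up to 0.057. *Nfatc1*, which encodes an NFAT factor that rises on activation, passed the adjusted p in the other direction, from 58.3, 51.9 and 49.0 FPKM to 79.1, 96.2 and 98.0 FPKM (log2 0.67, edgeR adjusted p = 0.0023). *Rcan1*, a calcineurin inhibitor that is itself an NFAT target, stayed between 3.86 and 5.53 FPKM in all 6 libraries and was not called (log2 0.08 ± 0.16 SE, edgeR adjusted p = 0.73). *Ppp3ca*, a catalytic subunit of calcineurin, had a log2 difference of 0.30 (edgeR adjusted p = 0.14).

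Transcription factors that T cells induce on activation split evenly, with 5 of 22 higher and 5 lower. Among those lower, *Irf4*, which scales with the strength of receptor signalling, fell from 224, 233 and 248 FPKM to 69.9, 116 and 120 FPKM (log2 -1.34, edgeR adjusted p = 0.0006), and *Batf3*, an AP-1 family partner, fell by 1.93 on the log2 scale. *Batf* fell by 1.14 (edgeR adjusted p = 0.024), a call that was lost in 3 of the fits that left out 1 library, where the adjusted p reached 0.0845. *Nr4a1*, an immediate early receptor gene, rose from 34.4, 48.7 and 49.0 FPKM to 116, 140 and 142 FPKM (log2 1.46, edgeR adjusted p = 0.0037). *Fosb* and *Tox2* rose by 3.10 and 2.73 on the log2 scale from levels of at most 1.33 FPKM, with *Tox2* at 3.44 without replicate 1 of *L. acidophilus*. *Egr2* passed the adjusted p but not the fold (log2 -0.59, edgeR adjusted p = 0.038), and it missed the threshold in 3 of the 6 fits with 1 library left out, at up to 0.114.

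Many transcripts that mark Treg cells, though not all, were higher with both agents. Of 20 Treg genes 11 rose, 0 fell and 9 were not called, with a median log2 difference of 1.20. Without a fold cut-off 13 passed the adjusted p in the higher and 2 in the lower direction. Without replicate 2 of *L. acidophilus* 9 rose and 1 fell, and without replicate 3 of that group 9 rose and 0 fell. *Foxp3* (chrX:7579676-7595243) read 24.7, 7.53 and 7.76 FPKM with *L. acidophilus* and 108, 95.7 and 101 FPKM with FK506 as well. Its mean went from 13.3 ± 9.86 (SD, n = 3) to 101 ± 5.94 FPKM (SD, n = 3), 6.98-fold higher (log2 2.80 ± 0.42 SE, edgeR adjusted p = 0.00042), and the groups did not overlap. The library of the bacterium that stood apart had the highest *Foxp3* of its group, and without it the log2 difference was 3.61 (edgeR adjusted p = 4.5e-05). *Ikzf2*, which encodes Helios, rose from 6.55, 1.62 and 1.78 FPKM to 24.0, 32.2 and 31.6 FPKM (log2 3.01, edgeR adjusted p = 0.00056). *Nt5e*, which encodes CD73, the enzyme that makes adenosine, rose from 2.48, 0.492 and 0.381 FPKM to 28.7, 35.5 and 34.8 FPKM and was 26.7-fold higher (log2 4.74 ± 0.70 SE, edgeR adjusted p = 0.00041). Without replicate 1 of *L. acidophilus* the log2 differences were 3.97 for *Ikzf2* and 6.10 for *Nt5e*.

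Other genes of the Treg list that rose encode surface proteins. *Lrrc32*, which encodes GARP, a carrier of latent TGF-β, was 6.16-fold higher, and *Itgb8*, the β8 integrin chain, rose by 2.05 on the log2 scale (edgeR adjusted p = 0.0055). *Itgae*, which encodes CD103, rose from 5.17, 0.883 and 1.22 FPKM to 27.2, 21.2 and 20.1 FPKM (log2 3.09, edgeR adjusted p = 0.0066), *Nrp1* was 4.37-fold higher and *Klrg1* 11.6-fold higher. The same library had the highest level of its group in these genes, and without it the log2 differences were 3.24 for *Lrrc32*, 2.88 for *Itgb8*, 4.24 for *Itgae* and 5.64 for *Klrg1*. *Il2ra*, which encodes CD25, passed the adjusted p in the other direction, from 466, 363 and 443 FPKM to 215, 258 and 262 FPKM (log2 -0.92 ± 0.16 SE, edgeR adjusted p = 0.0011). *Tnfrsf4*, also of the Treg list, did so too (edgeR adjusted p = 0.011). Its log2 difference lay between -0.934 and -0.661 in the fits that left out 1 library. *Ctla4* went from 136, 64.8 and 77.9 FPKM to 209, 186 and 192 FPKM, with no overlap but short of the fold (log2 0.95 ± 0.31 SE, edgeR adjusted p = 0.035). The *Ctla4* difference was 1.33 on the log2 scale without replicate 1 of *L. acidophilus* (edgeR adjusted p = 0.007), and without any 1 of the other 5 libraries it missed the adjusted p, which reached 0.129.

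Helper-subset genes moved in different directions. *Gata3*, the Th2 master regulator, fell from 90.5, 86.0 and 84.4 FPKM to 31.1, 29.4 and 31.5 FPKM (log2 -1.63 ± 0.13 SE, edgeR adjusted p = 3.1e-05), and 6 of 14 genes of the Th2 and Th9 list fell while 0 rose. Without replicate 1 of *L. acidophilus* 6 fell and 3 rose, and with replicates 2 and 3 of every group alone 7 fell and 5 rose. *Tbx21*, which encodes the Th1 regulator T-bet, fell from 35.6, 39.2 and 39.0 FPKM to 6.40, 11.0 and 9.99 FPKM (log2 -2.19 ± 0.28 SE, edgeR adjusted p = 0.00019). *Il12rb2*, the inducible chain of the IL-12 receptor, fell by 3.08 on the log2 scale, whereas *Il18r1* and *Il18rap*, the chains of the IL-18 receptor, rose by 3.94 (4.76 without replicate 1 of *L. acidophilus*) and 3.32, and 4 of 14 Th1 genes rose in all while 3 fell. *Nkg7*, a granule protein gene, was 12.2-fold lower at 8.10, 8.63 and 8.08 FPKM, from 102, 94.4 and 81.1 FPKM. *Gzmb*, which encodes granzyme B, was not called because replicate 1 of the combination, at 164 FPKM, lay near the 178, 208 and 275 FPKM of the other group (edgeR adjusted p = 0.064).

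Of 15 Th17 genes 8 rose and 2 fell, with a median log2 difference of 2.80. The genes that rose were 6 without replicate 2 or 3 of *L. acidophilus* or replicate 1 of the combination, and 9 without replicate 1 of *L. acidophilus*. *Ccr6*, a chemokine receptor of Th17 cells, of some Treg cells and of B cells, rose from 1.01, 0.182 and 0.218 FPKM to 14.9, 12.9 and 12.2 FPKM and was 23.7-fold higher (log2 4.57 ± 0.73 SE, edgeR adjusted p = 0.00067). Without replicate 1 of *L. acidophilus* the log2 differences were 5.78 for *Ccr6* and 4.09 for *Il23r*. *Il23r* was 10.2-fold higher and *Rora* 7.91-fold higher, while *Il21* and *Csf2*, described above, were the members that fell, with 1 of them called in 5 of the 6 fits that left out 1 library. Among 12 follicular helper genes 4 rose and 3 fell. *Cxcr5*, the receptor that brings cells to follicles, rose by 1.67 on the log2 scale and *Slamf6* by 2.35, whereas *Cd40lg*, which encodes the helper signal CD40L, fell by 1.54.

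Many genes of resting T cells were higher, while others were not called. Of 22 naive and quiescent T-cell genes 10 rose, 1 fell and 11 were not called. Of 21 homing receptors and adhesion genes 12 rose, 1 fell and 8 were not called. Over all genes tested 9.93% were called higher and 6.64% lower. Without replicate 3 of *L. acidophilus* or replicate 1 of the combination 8 of the 22 rose. Without either of these or replicate 2 of *L. acidophilus* 10 of the 21 rose. *Klf2*, a transcription factor that keeps T cells quiescent, rose from 9.65, 11.3 and 8.49 FPKM to 73.6, 29.1 and 29.2 FPKM, and its target *S1pr1*, the receptor for lymph node exit, rose from 6.14, 2.40 and 3.29 FPKM to 60.3, 25.9 and 25.9 FPKM. In both genes replicate 1 of the combination was the highest of its group, and without it *Klf2* rose by 1.42 rather than 2.05 on the log2 scale. *Tcf7*, which encodes TCF-1, was 2.45-fold higher, *Id3* 7.12-fold higher, and *Il7r*, the receptor for the survival factor IL-7, rose by 1.38 on the log2 scale. *Satb1*, a chromatin organizer, was the member that fell (log2 -1.41, edgeR adjusted p = 8.7e-05). *Ccr7*, a lymph node homing gene, was not called, at 78.6, 96.1 and 89.3 FPKM and then 251, 160 and 156 FPKM (log2 0.99, edgeR adjusted p = 0.058).

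**Figure D2:**
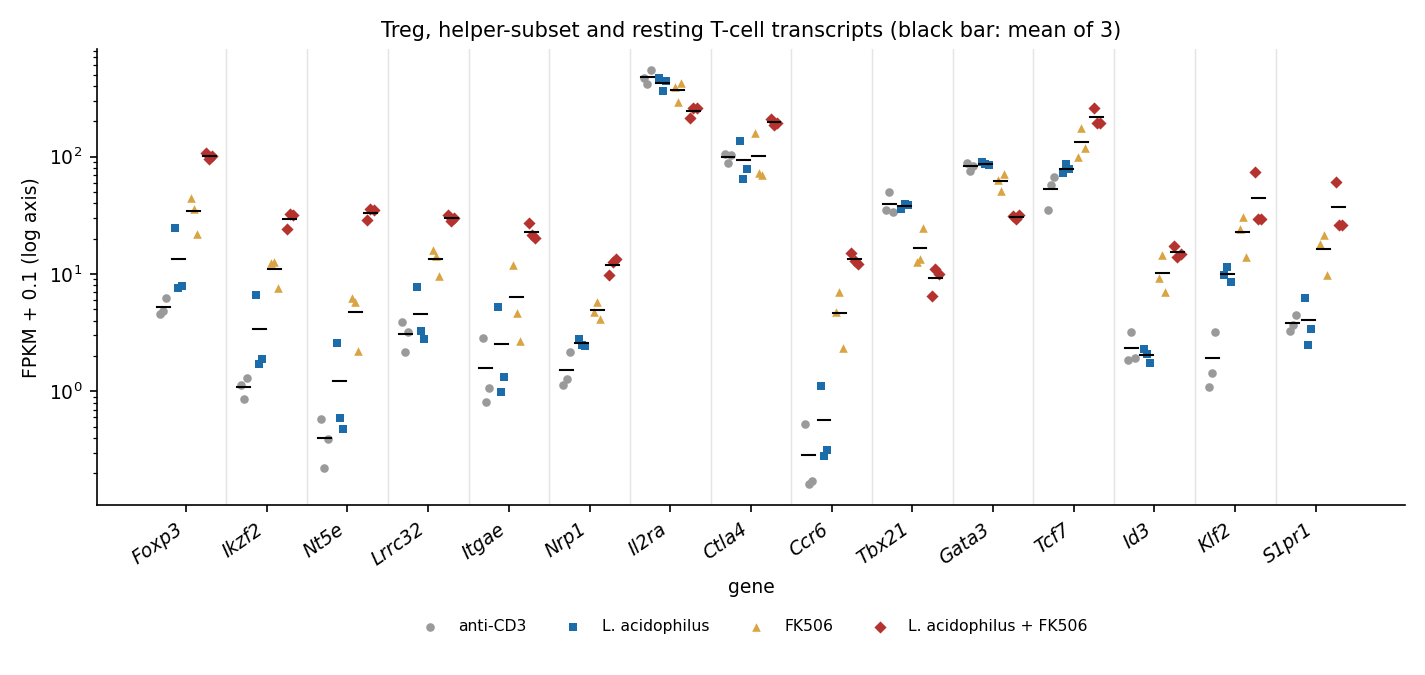
FPKM + 0.1 on a log axis of 15 Treg, helper-subset and resting T-cell genes in each of the 12 libraries, by group, with a bar at the mean of 3. *Foxp3* lies between 95.7 and 108 FPKM with both agents and at or below 24.7 FPKM with *L. acidophilus*, while *Tbx21*, *Gata3* and *Il2ra* lie lower with both agents.

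Transcripts of other cell types moved with this comparison and stand beside every group above and below. Of 18 B-cell markers 16 rose and 0 fell, with a median log2 difference of 2.63, and their summed level went from between 163 and 404 FPKM to between 1552 and 1737 FPKM. *Cd79a*, a chain of the B-cell receptor complex, rose from 8.04, 7.00 and 5.68 FPKM to 44.9, 50.4 and 50.9 FPKM (log2 2.69 ± 0.27 SE, edgeR adjusted p = 5.5e-05), and *Ighd*, the constant region of IgD, was 21.1-fold higher, or 5.10 on the log2 scale without replicate 1 of *L. acidophilus*. No B-cell marker was at 0 in a library with both agents, and *Fcrla* was at 0 in replicates 2 and 3 of *L. acidophilus*. Of 207 immunoglobulin V segments tested, 117 rose and 0 fell. The 10 genes of MHC class II presentation, which B cells and myeloid cells express, had 9 that rose, and their sum went from between 100 and 194 FPKM to between 973 and 1034 FPKM. *H2-Aa* was 9.92-fold higher.

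Most myeloid markers rose, some of them from near 0. Of 15 tested, 12 rose, 0 fell and 3 were not called, with a median log2 difference of 3.98. *Lyz2*, which encodes lysozyme M, read 0.181, 0 and 0 FPKM and then 30.8, 14.5 and 16.1 FPKM, and *Mmp12*, the macrophage elastase, read 0.0911, 0 and 0 FPKM and then 15.7, 18.6 and 18.3 FPKM. *C1qa*, a complement gene of macrophages, had no counts with *L. acidophilus* and was at least 27.3-fold higher. *Csf1r*, the macrophage growth factor receptor, was called higher too but at low levels, from 0.0227, 0 and 0 FPKM to 0.921, 0.705 and 0.834 FPKM (edgeR adjusted p = 0.00045). The summed level of the list went from between 73.3 and 111 FPKM to between 163 and 298 FPKM, and *Cst3*, which was not called, gave 68.8 to 101 FPKM of the former. Of the 16 genes of CD4 T-cell identity 0 were called, with a median log2 difference of 0.09. Their summed FPKM was higher in each library with both agents, and *Cd4* passed the adjusted p but not the fold (168, 148 and 141 FPKM, then 256, 237 and 242 FPKM). Of 9 CD8, NK and γδ T-cell markers 4 rose, or 2 without replicate 2 or 3 of *L. acidophilus* or replicate 1 of the combination, with *Cd8a* at or below 0.534 FPKM throughout. The part of these cells in the rises and falls of the other lists was not tested.

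**Figure D3:**
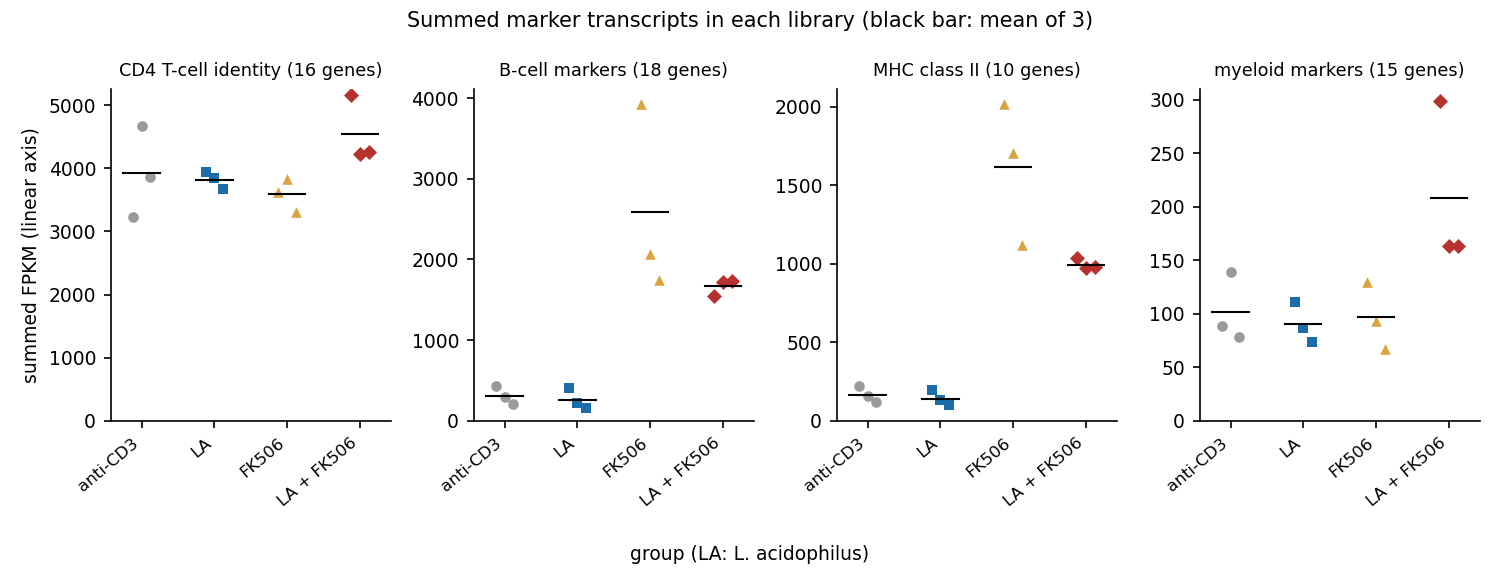
Summed FPKM of 4 marker lists in each of the 12 libraries, on linear axes that start at 0, with a bar at the mean of 3. B-cell and MHC class II sums are higher in both groups with FK506, and the CD4 T-cell identity sums lie between 3676 and 3940 FPKM with *L. acidophilus* and between 4229 and 5159 FPKM with both agents.

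The programme of growth and division was lower. Of 24 genes of MYC and ribosome biogenesis 19 fell and 0 rose, with a median log2 difference of -1.27. *Myc*, the growth regulator, fell from 74.9, 90.6 and 86.9 FPKM to 28.3, 24.5 and 22.6 FPKM (log2 -1.86 ± 0.16 SE, edgeR adjusted p = 3.5e-05). *Srm*, spermidine synthase, and *Rrp12*, a ribosome assembly factor, fell by 1.94 and 1.75 on the log2 scale, and *Ncl*, nucleolin, by 1.22. Of 30 DNA replication and mitosis genes 12 fell by at least 2-fold and 29 passed the adjusted p in the lower direction, the exception being *Mki67* (log2 -0.46, edgeR adjusted p = 0.16). *Ccne1*, which encodes cyclin E1, fell from 29.3, 29.5 and 29.0 FPKM to 9.22, 11.3 and 11.1 FPKM, and *Uhrf1*, which maintains DNA methylation, was 2.37-fold lower. These falls sat close to the fold cut-off. On library totals with no TMM scaling, which moved the median of all genes up by 0.13 on the log2 scale, 4 of the 30 were called lower, without replicate 1 of *L. acidophilus* 8, and without replicate 1 of the combination 6.

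Transcripts of glycolysis and lipid synthesis genes were lower as well. All 22 glycolysis genes passed the adjusted p in the lower direction and 15 fell by at least 2-fold, with a median log2 difference of -1.52. *Hk2*, the inducible hexokinase, fell from 20.2, 20.2 and 25 FPKM to 3.47, 3.86 and 4.07 FPKM (log2 -2.66 ± 0.25 SE, edgeR adjusted p = 4.3e-05). *Ldha*, lactate dehydrogenase, was 2.93-fold lower and *Slc2a1*, the glucose transporter GLUT1, fell by 1.05 on the log2 scale. Of 26 sterol and fatty acid synthesis genes 15 fell and 0 rose. *Scd2*, a stearoyl-CoA desaturase, went from 231, 327 and 335 FPKM to 12.7, 26.4 and 27.3 FPKM and was 14.8-fold lower (log2 -3.88 ± 0.42 SE, edgeR adjusted p = 7.4e-05), and *Fdps*, an enzyme of the mevalonate pathway, fell by 1.80. Of 23 genes of the ATF4 response and amino acid metabolism 10 fell and 1 rose. The genes that fell included *Asns*, asparagine synthetase, by 1.49 and *Shmt1*, a one-carbon enzyme, by 1.84, and the gene that rose was *Slc7a11*, the cystine transporter, by 3.56, or 4.18 without replicate 1 of *L. acidophilus*.

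Smaller lists were mixed, and several counts moved with single libraries. Over all genes tested 9.93% were called higher and 6.64% lower, or 16.6% in either direction. Called in either direction were 9.09% of the ERK feedback list and 23.5% of the list of IL-2 and common gamma chain receptors. The counts of these lists below are not taken as results about them. Among 13 chemokines 3 fell and 4 rose, with *Ccl4* at 130, 70.7 and 77.9 FPKM and then 14.8, 19.8 and 18.9 FPKM, and *Ccl3* 2.19 lower on the log2 scale. The annotated spans of *Ccl3* and *Ccl4* overlap on chromosome 11, so their counts may not be separate. *Cxcl16* and *Cxcl10* rose by 3.25 and 2.57, or by 3.99 and 3.65 without replicate 1 of *L. acidophilus*. Without replicate 2 of *L. acidophilus* or replicate 1 of the combination, 2 chemokines rose. Of 18 TNF family genes 4 rose and 3 fell, and *Tnfrsf1b*, which encodes TNF receptor 2, rose from 18.7, 9.21 and 9.20 FPKM to 65.5, 57.0 and 57.3 FPKM (log2 2.15, edgeR adjusted p = 0.00018), while 2 of the family rose without replicate 3 of *L. acidophilus*. Of 12 inhibitory receptors 3 rose, or 5 without replicate 1 of *L. acidophilus*, among them *Havcr2*, which encodes TIM-3, by 1.22, while *Pdcd1* and *Lag3* were not called (edgeR adjusted p of 0.19 and 0.35). Among 13 genes linked to T-cell anergy 5 rose, including *Dtx1* by 1.56, and *Cblb* and *Rnf128*, the ubiquitin ligases of that state, were not called. Of 17 genes of IL-2 and the common gamma chain receptors 2 rose and 2 fell, and 0 fell without replicate 3 of *L. acidophilus* or without replicate 2 or 3 of the combination. Of 13 cytotoxic genes 2 rose and 3 fell, and 1 rose without replicate 2 or 3 of *L. acidophilus* or replicate 1 or 2 of the combination. Of 11 genes of ERK feedback 1 rose, *Dusp5*, by 1.18, or 3 without replicate 1 of *L. acidophilus* and 2 without any 1 library of the combination. Of 25 interferon-stimulated genes 8 rose and 1 fell, and replicate 1 of the combination was the highest of its group for each of *Ifit1*, *Ifit3*, *Irf7* and *Rtp4*. The call for *Irf7* was lost without that library and without replicate 1 or 2 of *L. acidophilus*, and without the latter library the list had 5 genes that rose. *Ifit3* may share reads with its near copy *Ifit3b*.

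**Figure D4:**
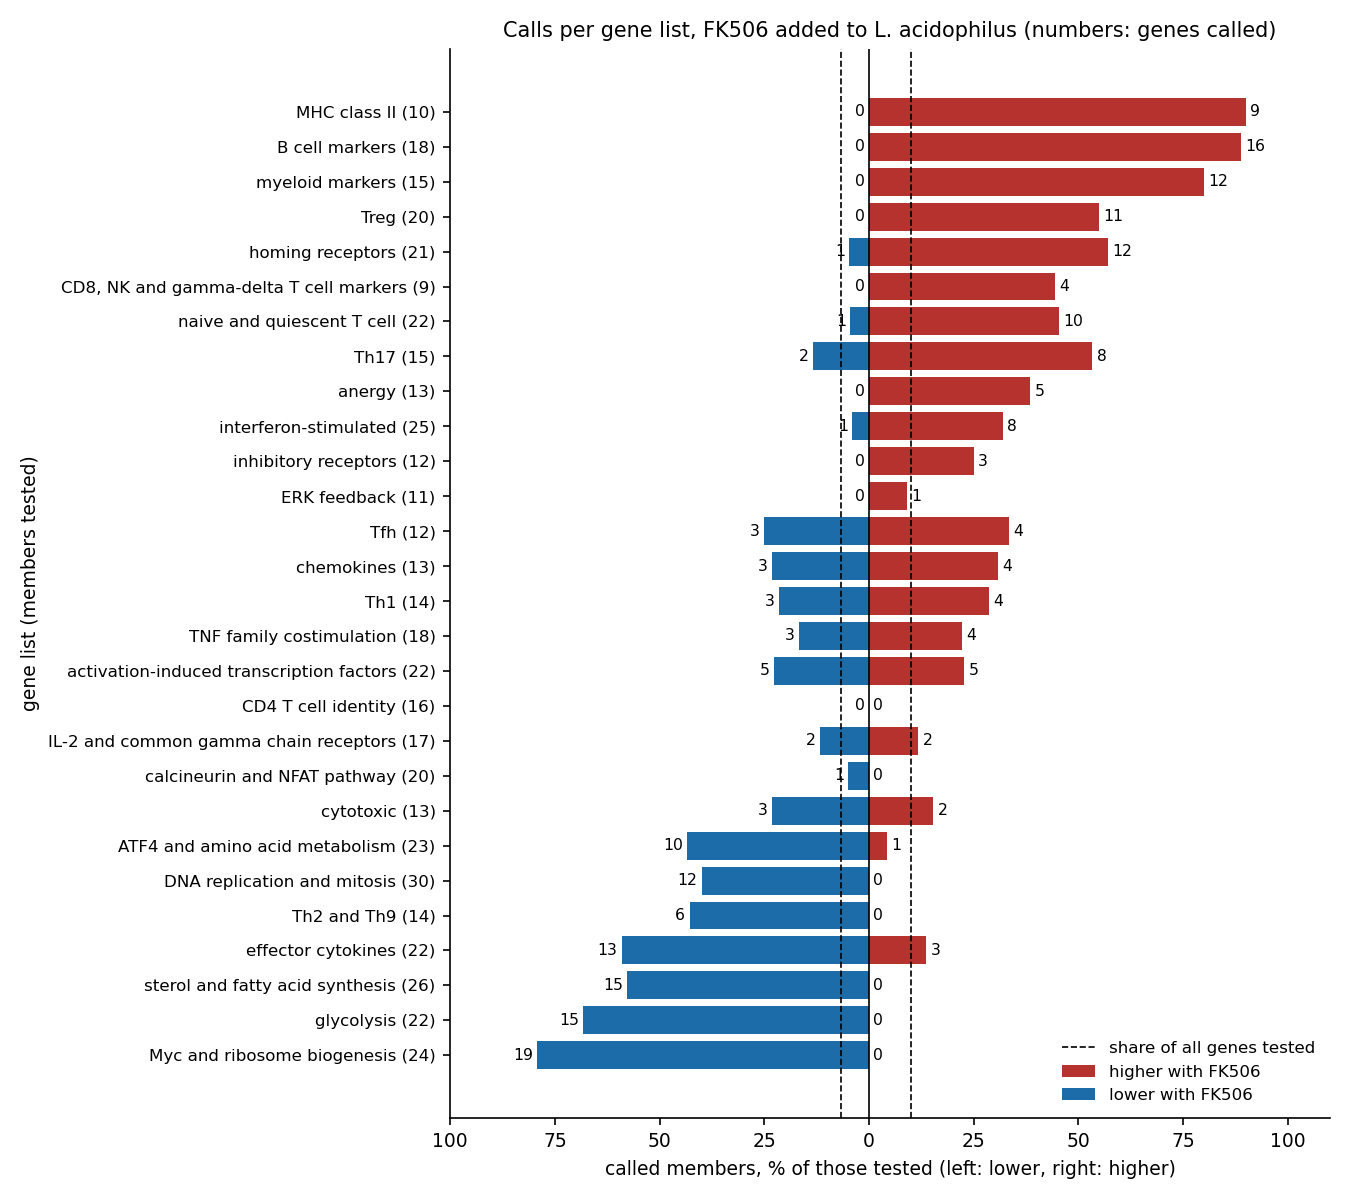
Share of each of 28 gene lists called higher (right) or lower (left) when FK506 was added to *L. acidophilus*, in percent of the members tested, with the numbers of genes at the bars and dashed lines at the shares over all genes tested, 9.93% higher and 6.64% lower. Myc and ribosome biogenesis, glycolysis and sterol synthesis hold no gene called higher, and B-cell, MHC class II and myeloid markers hold none called lower.

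Among single genes outside these lists, the largest losses with a mean of at least 5 FPKM over the 6 libraries were *Edn1*, *Osr2*, *Akr1c18* and *Serpinf1*. *Akr1c18*, a steroid dehydrogenase gene, went from 748, 290 and 298 FPKM to 5.84, 10.4 and 9.51 FPKM, 57.0-fold lower (log2 -5.83 ± 0.57 SE, edgeR adjusted p = 5.3e-05), or -5.23 on the log2 scale without replicate 1 of *L. acidophilus*. *Serpinf1*, which encodes the secreted factor PEDF, went from 22.8, 20.1 and 24.9 FPKM to 0.449, 0.614 and 0.605 FPKM, and *Osr2*, a zinc finger factor, from 7.75, 14.3 and 13.6 FPKM to 0.0524, 0.226 and 0.182 FPKM. *Edn1*, the gene of endothelin-1, read 4.10, 35.5 and 36.0 FPKM and then 0.0699, 0.292 and 0.276 FPKM. The rule required groups that did not overlap, which 50.2% of the genes tested met. The largest rises by the same rule, besides *Mmp12*, *Lyz2* and *Nt5e*, were *Ccl6*, *Igkv6-13*, *Ms4a4b*, *Chad* and *Ms4a4c*. *Ms4a4b*, a membrane protein gene of T cells, rose from 20.3, 5.46 and 5 FPKM to 382, 255 and 265 FPKM (log2 4.74 ± 0.56 SE, edgeR adjusted p = 0.00012) or by 5.72 on the log2 scale without replicate 1 of *L. acidophilus*, and its counts may share reads with the related *Ms4a4c*.

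The same drug was also given without the bacterium, to cells stimulated with anti-CD3, which shows whether its effect differed in the presence of *L. acidophilus*. There 2491 genes were called, 10.6% of those tested, with 1520 higher (6.44%) and 971 lower (4.12%). The comparisons share no library. In the same direction in both were 1599 genes, 40.9% of those called with the bacterium and 64.2% of those called without it, and 19 were called in opposite directions. The difference of the FK506 effects itself, tested as an interaction at an edgeR adjusted p below 0.05, was called in 1025 genes, 4.35% of those tested, and lay below 0 in 707 and above 0 in 318. This split depended on the fit, with 809 below and 866 above with limma, 1291 below and 1089 above with DESeq2, and 252 below and 222 above with replicates 2 and 3 of every group alone. Of the genes called with the bacterium, 458 were among them. The count of 1025 moved with single libraries, falling to 332 and 400 without replicates 2 and 3 of *L. acidophilus*, to 383 and 477 without replicates 2 and 3 of the combination, and to 442 without replicate 3 of FK506, and it was 1464 without replicate 2 of anti-CD3.

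The differences below 0 included cytokine and growth genes. *Il4* read 36.6 FPKM on average with FK506 and 35.2 FPKM with anti-CD3 alone, with no loss (log2 -0.07, edgeR adjusted p = 0.97), against the fall of 4.70 with the bacterium, and the interaction was -4.63 (edgeR adjusted p = 0.017), or -3.50 without replicate 1 of *L. acidophilus*. *Il13* and *Il21* fell in both settings and further with the bacterium, with interactions of -3.07 (edgeR adjusted p = 0.024) and -3.21 (edgeR adjusted p = 0.013). That of *Il13* missed the threshold in 4 of the 12 fits with 1 library left out, at up to 0.0642. For *Il2* the falls were 3.13 with and 1.67 without the bacterium, and their difference was not called (edgeR adjusted p = 0.25). *Gata3* had an interaction of -1.10 (edgeR adjusted p = 0.0093) and *Myc* of -1.29 (edgeR adjusted p = 0.011). Of the 24 MYC and ribosome biogenesis genes 0 were called without the bacterium and 16 had a called difference, each below 0. Of the 30 replication genes 1 was called lower without it and 17 had a called difference. Glycolysis fell in both, with 14 of 22 genes called lower without the bacterium, and 1 of 22 differed. For *Foxp3* the rises were 2.80 with and 2.62 without the bacterium, and their difference of 0.19 was not called (edgeR adjusted p = 0.93), nor was that of any other gene of the Treg list. *Myo6*, an unconventional myosin gene, read 21.0, 3.75 and 3.24 FPKM and then 1.82, 0.929 and 0.961 FPKM with the bacterium, with an interaction of -4.40 (edgeR adjusted p = 0.041) that was -2.98 and not called without replicate 1 of *L. acidophilus*, and its own fall of 3.02 on the log2 scale was not called without replicate 1 of *L. acidophilus* (log2 -1.61, edgeR adjusted p = 0.0537).

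The largest differences above 0 among genes with a mean of at least 5 FPKM were those of *Ramp3*, *Cd63*, *Hmox1*, *Gstm1* and *Ccl5*. *Hmox1*, heme oxygenase 1, rose from 9.21, 4.65 and 4.5 FPKM to 56.3, 53.2 and 56.7 FPKM with the bacterium (log2 3.05 ± 0.42 SE, edgeR adjusted p = 0.00027), whereas without it the log2 difference was -0.13. *Cd63*, a tetraspanin gene of late endosomes, rose by 2.90 and *Gstm1*, a glutathione transferase gene, by 2.56, neither of which was called without the bacterium. *Ccl5*, the chemokine RANTES, fell by 2.00 without the bacterium, and with it passed the adjusted p in the other direction at 0.79, short of the fold. *Ramp3*, a receptor accessory gene, fell by 2.98 without the bacterium and was not called with it (log2 0.64, edgeR adjusted p = 0.24).

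**Figure D5:**
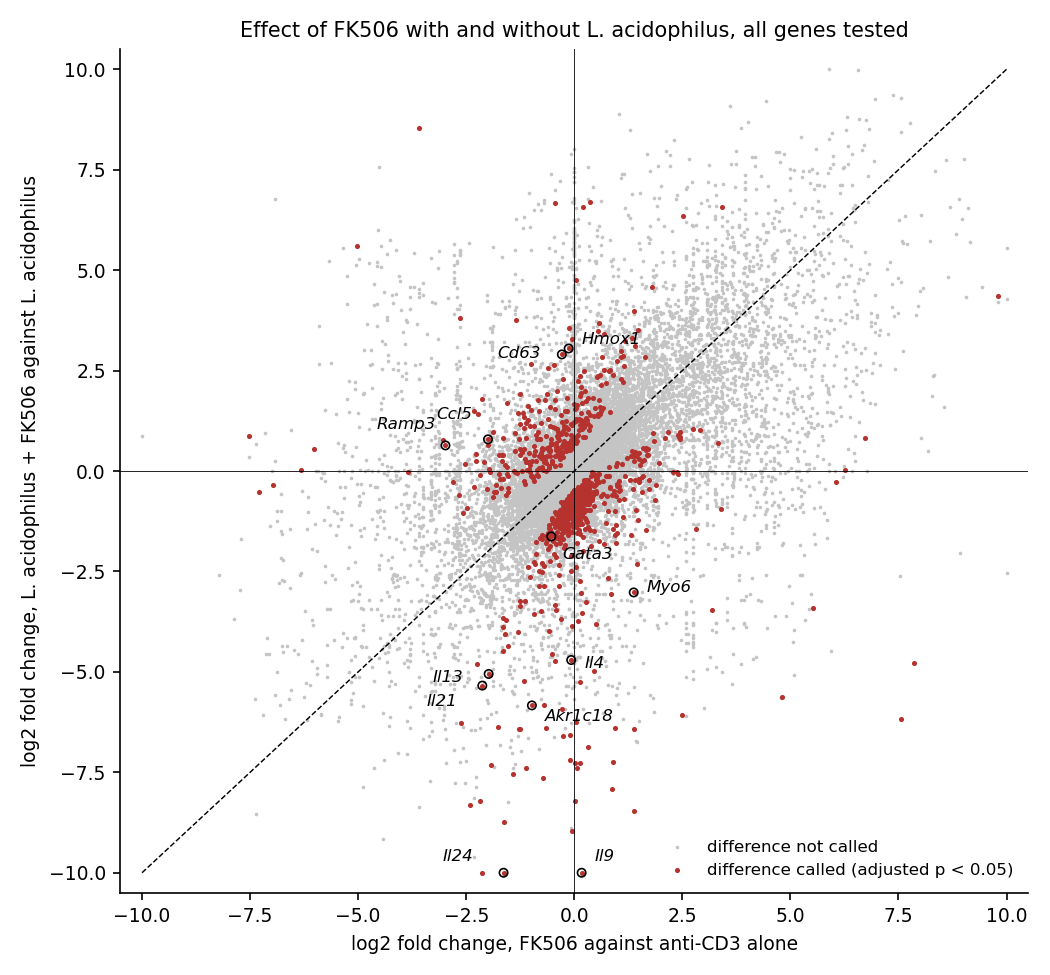
Log2 fold change of FK506 with *L. acidophilus* (vertical axis) against that without it (horizontal axis) for the 23585 genes tested, with the 1025 genes whose effects differed in red and the diagonal dashed. Values past 10 in size, 8 genes, are drawn at the limit, and *Il4*, *Akr1c18* and *Il9* lie far below the diagonal near 0 on the horizontal axis.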

How the data were processed

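RNA-seq of 12 libraries was read from 1 table. The submitters' processing notes name bcl2fastq 2.20.0, Trimmomatic, HISAT2 2.1.0 and StringTie 2.1.3b with mm10/GRCm38. The deposited read counts are whole numbers in which even values are in excess, so they were treated as estimated counts. The deposited FPKM values, a length-scaled level, show no sign of the quantile normalization that the study's methods name. The deposited TPM values were not used. The labels and the methods name different sequencers.

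The counts were fitted with edgeR 4.0.16 (quasi-likelihood, TMM factors, R 4.3.3) over all 12 libraries and 4 groups, without a block, on genes above 0 in at least 3 libraries. P-values are two-sided with Benjamini-Hochberg adjustment over 23585 genes. Each SE was derived from the test, as the size of the log2 difference divided by the square root of the quasi-likelihood F statistic. Genes were called at an adjusted p under 0.05 and at least 2-fold, and the interaction without a fold. The fit was also run on simulated counts with the same spread for all genes and no library that stood apart. These data differ in both, so that run does not show how the fit acts on them. Alternatives were DESeq2 1.42.0, limma 3.58.1 on log2(FPKM + 1), library totals, other filters, a replicate block, the 6 libraries alone and each library left out. FPKM values show levels, and fold changes come from counts. Floors cover counting error only, at 3 counts per library. Strand use in the counting is not given in the sources used here.

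Genes outside lists are the 8 largest falls and 8 largest rises with groups that do not overlap and a mean of at least 5 FPKM, leaving out provisional symbols, and the 5 largest interactions in each direction at a mean of at least 5 FPKM over all libraries. Within lists, lead genes and up to 3 called genes with the largest change and a mean of at least 1 FPKM were named, with others added after their values were seen. The comparison and the 28 lists were chosen with earlier results of these data known. Of the list members, 8 were absent from the table or did not pass the filter. Values of a few named list members are not reported here.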

Additional observations from a re-analysis of the deposited data

Results flagged for a closer look

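The effect of FK506 differed between cells with and without *L. acidophilus* in 1025 genes, by an interaction term in the edgeR fit at an adjusted p below 0.05. The values that follow are these interactions on the log2 scale, below 0 where FK506 lowered a gene further, or raised it less, in the presence of the bacterium. Among the genes named here, cytokine genes below 0 included *Il4* at -4.63, *Il21* at -3.21 and *Il13* at -3.07. *Il24* and *Il9* had fitted values of -14.0 and -13.5, which depend on the prior count because both had 0 counts in the libraries with both agents, and are no measure of size. *Akr1c18* stood at -4.85, *Myo6* at -4.40 (with 1 library of *L. acidophilus*, replicate 1, at 21.0 FPKM against 3.75 and 3.24 FPKM in the other two), *Gzma*, which encodes granzyme A, at -3.02 and the regulator *Gata3* at -1.10. Growth and cell cycle genes were *Srm* at -1.32, *Myc* at -1.29, *Rrp12* at -1.27, *Ncl* at -1.21, *Ccne1* at -1.17, *Mcm2* at -1.01 and *Uhrf1* at -0.867. Metabolic genes were *Scd2* at -2.23, *Shmt1* at -1.63 and *Sqle* at -0.929. Above 0 lay *Ramp3* at 3.62, *Cd63* at 3.19, *Hmox1* at 3.18, *Gstm1* at 3.17 and *Ccl5* at 2.79. So did *Isg15*, an interferon-stimulated gene, at 2.33, the receptor genes *Tnfrsf9* at 1.66 and *Tnfrsf1b* at 1.53, and *Cd4* at 0.67. No single group had enough libraries for a check of outlying samples by range. Of these 28 genes, 18 were called in each of the 12 fits that left out 1 library. The other 10 missed the threshold in some, *Isg15* in 11 of them, *Myo6*, *Scd2* and *Tnfrsf1b* in 9, *Gzma* in 6, *Srm* in 5, *Il13* and *Cd4* in 4, *Tnfrsf9* in 2 and *Il4* in 1. The interaction was -3.50 for *Il4*, -2.44 for *Il13*, -4.25 for *Akr1c18* and -2.98 for *Myo6* without replicate 1 of *L. acidophilus*. That of *Isg15* ran from 1.65 to 2.6 over the 12 fits.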

How the results depend on the processing

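The count of 3910 genes with FK506 added to *L. acidophilus* was 7930 without the fold cut-off and 1618 with limma on log2(FPKM + 1), and leaving out single libraries gave 3226 to 3951. With FK506 added to anti-CD3 the 2491 genes became 4483 and 967, and 1666 to 2538. The 1025 genes whose effects differed became 1675 with limma, 2380 with DESeq2, 474 with replicates 2 and 3 of every group alone, an alternative chosen after seeing the data, and 332 to 1464 without single libraries. With a replicate block the counts were 3945, 2524 and 1578. No label says that a shared number marks a shared animal or day, and the main fit did not pair the libraries. Whether same-numbered libraries shared a source was not tested. Deviations of same-numbered libraries with *L. acidophilus*, with and without FK506, correlated at 0.176, 0.0764 and 0.0561. Those of anti-CD3 with and without FK506 correlated at 0.28, -0.0488 and 0.0323. With *L. acidophilus* replicate 1 stood against replicates 2 and 3 in both groups: correlations of replicate 1 with replicates 2 and 3 of the other group lay between -0.139 and -0.0803, those among replicates 2 and 3 between 0.0487 and 0.105, and replicate 3 without FK506 correlated best with replicate 2 of the combination. Of the 142 genes that the naming rule took 122 passed the adjusted p, and 111 of these did so in every fit without 1 library. Among genes named beyond the rule, *Csf2*, *Ebi3*, *Il17a*, *Il17f* and *Rad50* passed and missed the threshold in at least 1 of these fits, at an adjusted p of up to 0.11, 0.0598, 0.143, 0.0728 and 0.0632. Directions turned only in genes not past the threshold in either fit. Without single libraries *Ifng* ran from -0.966 to 0.428, *Isg15* from -0.454 to 0.489, *Rcan1* from -0.0108 to 0.143, *Rnf128* from -0.309 to 0.132 and *Xcl1* from -0.176 to 0.217, and *Il10* went from -1.13 to 0.0125 without replicate 1 of *L. acidophilus*. *Ifng* was at 0.82 with replicates 2 and 3 alone and *Isg15* at -0.43. *Rnf128* turned to 0.0477 with no TMM scaling and 0.0282 with limma. *Xcl1*, near 0, read 0.131 with no TMM scaling, 0.013 with filterByExpr, 0.00146 with no filter, 0.0968 with limma, 0.045 with DESeq2, 0.00776 in the 6 libraries alone and 0.0247 with replicates 2 and 3 alone. The cause of these shifts was not tested. Genes near 0 counts are limited by depth.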
